A study of Mus musculus with 6 samples.

Results

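The nuclear genes that encode subunits of respiratory complexes II, III and IV, of cytochrome c and of the ATP synthase (complex V) were followed in C2C12 cells, an immortalised mouse myoblast line, with and without cyclic stretch. The set was taken by name: protein-coding rows of the deposited table with the symbols Sdha, Sdhb, Sdhc, Sdhd, Cyc1 or Cycs, or with symbols that begin with Uqcr, Cox4, Cox5, Cox6, Cox7, Cox8 or Atp5, pseudogenes left out. It holds 48 of 32815 gene rows: 4 of complex II, 9 of complex III, 1 for cytochrome c, 17 of complex IV and 17 of complex V. Of these, 44 reached a mean of 1 FPKM (fragments scaled by transcript length and library total) over the libraries and were tested, and Cox4i2, Cox6b2, Cox7a1 and Cox8b did not. The symbol rule takes in 2 genes of related proteins that are not listed as subunits here, Cox7a2l and Atp5s. The 7 pseudogene rows left out reached at most 1.20 FPKM, and how reads were split between near-identical copies is not known.

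Poly(A) RNA was sequenced from 3 control libraries and 3 libraries of cells under mechanical stretch (MS), all wild-type C2C12 and all carrying the same batch label. Per the labels, the stretch was given by bending the plate at 4 points with a displacement of 4 mm and 5333 μ, a unit that is not spelled out, for 8 h at 1 Hz. C2C12 is an established line, and the labels do not state whether replicate libraries were made from separate cultures. The p-values therefore reflect library-to-library spread, which may be technical. In bulk RNA, fewer cells of a type and less RNA per cell cannot be told apart.

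Complex II (succinate dehydrogenase) oxidises succinate and passes the electrons to coenzyme Q, complex III passes them from coenzyme Q to cytochrome c, and complex IV (cytochrome c oxidase) passes them on to oxygen. Complexes III and IV pump protons, and complex V uses the proton gradient to make ATP. All subunits of complex II are nuclear, while complexes III, IV and V each also hold subunits encoded by mitochondrial DNA. In complex IV, several nuclear subunits have a form used in heart and skeletal muscle or testis beside one used in most tissues.

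The subunit VIa pair of complex IV carries the largest difference of the set, so the end of each reading frame is shown to let the transcripts be told apart. Each line gives the last 150 bases of the coding sequence on the transcript strand (GENCODE M21, GRCm38), with the longest run shared by both, 12 bases, in capitals. The Cox6a2 frame is 294 bases long and lies on chromosome 7 between 128205729 and 128206295, and the Cox6a1 frame is 339 bases long and lies on chromosome 5 between 115345843 and 115348950, both on the minus strand.
Cox6a2: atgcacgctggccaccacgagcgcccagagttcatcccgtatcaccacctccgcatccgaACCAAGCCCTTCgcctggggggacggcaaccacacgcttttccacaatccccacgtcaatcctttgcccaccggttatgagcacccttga
Cox6a1: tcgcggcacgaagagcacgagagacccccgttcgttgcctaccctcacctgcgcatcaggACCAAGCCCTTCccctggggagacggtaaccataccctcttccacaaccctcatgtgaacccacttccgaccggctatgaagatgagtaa
Of 290 aligned coding bases 193 were identical (66.6%), and no identical run was longer than the 12 bases in capitals.

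Promoters are shown for Cycs and Sdhb, which were higher in MS, and for Cox6a1, which did not pass the test. All promoters were searched for 2 motifs that are known from promoters of respiratory genes, the NRF1 core GCATGCGC and the ETS core CCGGAAG, on both strands. Each line runs from 250 bases before to 50 bases after the RefSeq start on GRCm38.p6, at chr6:50566520-50566819 on the minus strand for Cycs, chr4:140961021-140961320 on the plus strand for Sdhb and chr5:115348909-115349208 on the minus strand for Cox6a1. Capitals mark the matches. The 10 capitals in Cox6a1 hold an NRF1 core on each strand, overlapping each other.
Cycs: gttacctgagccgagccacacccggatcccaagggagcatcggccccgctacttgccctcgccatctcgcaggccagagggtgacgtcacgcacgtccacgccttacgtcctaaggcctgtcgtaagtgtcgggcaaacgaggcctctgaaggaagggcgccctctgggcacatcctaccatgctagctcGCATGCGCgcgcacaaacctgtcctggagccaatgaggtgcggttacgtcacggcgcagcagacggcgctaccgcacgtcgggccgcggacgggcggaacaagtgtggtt
Sdhb: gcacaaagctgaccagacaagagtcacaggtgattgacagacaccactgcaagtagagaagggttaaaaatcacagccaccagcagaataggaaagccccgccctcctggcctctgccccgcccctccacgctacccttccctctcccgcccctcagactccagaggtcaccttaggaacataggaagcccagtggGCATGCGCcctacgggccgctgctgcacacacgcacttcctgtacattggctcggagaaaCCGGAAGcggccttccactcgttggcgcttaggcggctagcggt
Cox6a1: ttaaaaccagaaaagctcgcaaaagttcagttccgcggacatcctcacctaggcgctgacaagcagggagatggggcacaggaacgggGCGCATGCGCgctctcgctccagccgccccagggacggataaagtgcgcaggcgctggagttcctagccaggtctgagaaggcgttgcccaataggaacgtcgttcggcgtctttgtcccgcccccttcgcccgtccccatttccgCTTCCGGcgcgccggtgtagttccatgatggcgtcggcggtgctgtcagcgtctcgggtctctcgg
A promoter of this window was available for 35 of the 48 genes. A gene was counted if any of its promoters held the motif. The NRF1 core was in 8 of the 35 (22.9%), those of Atp5g2, Atp5k, Atp5l, Cox6a1, Cycs, Sdhb, Uqcr11 and Uqcrc1. By gene it was in 3.05% of all 27025, and by promoter in 2.71% of all 32851. The ETS core was in 12 of the 35 (34.3%), in 9.93% of all genes and in 8.86% of all promoters. Among genes of the set that were called changed and had a promoter, 3 of 6 held the NRF1 core and 2 of 6 the ETS core, against 5 of 26 and 10 of 26 among those tested and not called. A match describes the letters of this window and not a binding site.

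Control 3 and MS 1 stood apart from the other libraries on the second principal component (15.3% of the variance), and transcripts of other tissues moved with this. Tongue and salivary gland genes reached a sum of 128 FPKM in control 3 and of 158 in MS 1, against 6.68 to 10.6 in the others, where Bpifa2, Dcpp1, Dcpp2 and Krt4 were at 0. A list of mature muscle fibre genes summed to 117 and 156 FPKM in these 2 libraries and to 6.80 to 12.1 in the others. Kidney genes had sums of 97.2 to 107 FPKM in control 3 and every MS library, but of 1.01 and 1.15 in control 1 and control 2, and lens genes summed to 206 and 253 FPKM in control 3 and MS 1, against 548 to 748. Summed cardiac genes were at most 0.26 FPKM except in MS 3 (6.10), and testis genes were at 0 except in MS 2 (0.21). Of the myoblast markers, Des was at 46.7 to 59.8 FPKM, Myod1 at 0.82 to 2.00 and Myog at or below 0.31, and 4 of 7 tested markers were lower in MS and 1 was higher (1 and 1 with the library set as a term, described below). Because of this split, fold changes are also given for MS 1 against control 3, which share a pattern of such transcripts and belong to different groups.

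Most of the nuclear subunits differed little between stretched and control myoblasts. Of the 44 tested genes, 10 were higher in MS (22.7%), 1 was lower (2.27%) and 33 did not pass the test (limma on log2(FPKM + 1), two-sided, Benjamini-Hochberg adjustment over all 12028 tested genes, called at an adjusted p under 0.05). Over all tested genes 53.8% were called, 30.6% higher and 23.2% lower, so the 11 calls among 44 subunits make up a smaller share than in the whole table. All MS libraries lay above all controls for 16 of the 44 (36.4%) and below for 9 (20.5%), against 35.9% and 26.8% of all tested genes. The median log2 fold change was 0.09, against 0.05 over all genes, and 33 of the 44 lay within 0.2 of 0 on either side. With each library scaled to the same sum, 22 were called higher and 0 lower, and with scaling by the median ratio 8 and 8. Over all genes 3683 were called higher and 2787 lower as deposited, 5021 and 2030 with equal sums, and 3094 and 3183 with the median ratio. The share of subunits called higher was thus below that of all tested genes as deposited and above it with equal sums. The share of all called genes that were higher was 56.9% as deposited, 71.2% with equal sums and 49.3% with the median ratio, and the median of all genes was then 0.15 and 0.00. By complex, complex III had 4 higher and 1 lower of 9, complex IV 3 higher of 13, complex II 1 of 4 and complex V 1 of 17, with 0 lower in these 3, and Cycs was higher. With equal sums complex IV had 8 higher and 0 lower, and with the median ratio 2 and 1. Medians as deposited were 0.13 for complex III, 0.09 for complex IV, -0.02 for complex II and 0.01 for complex V.

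**Figure D1:**
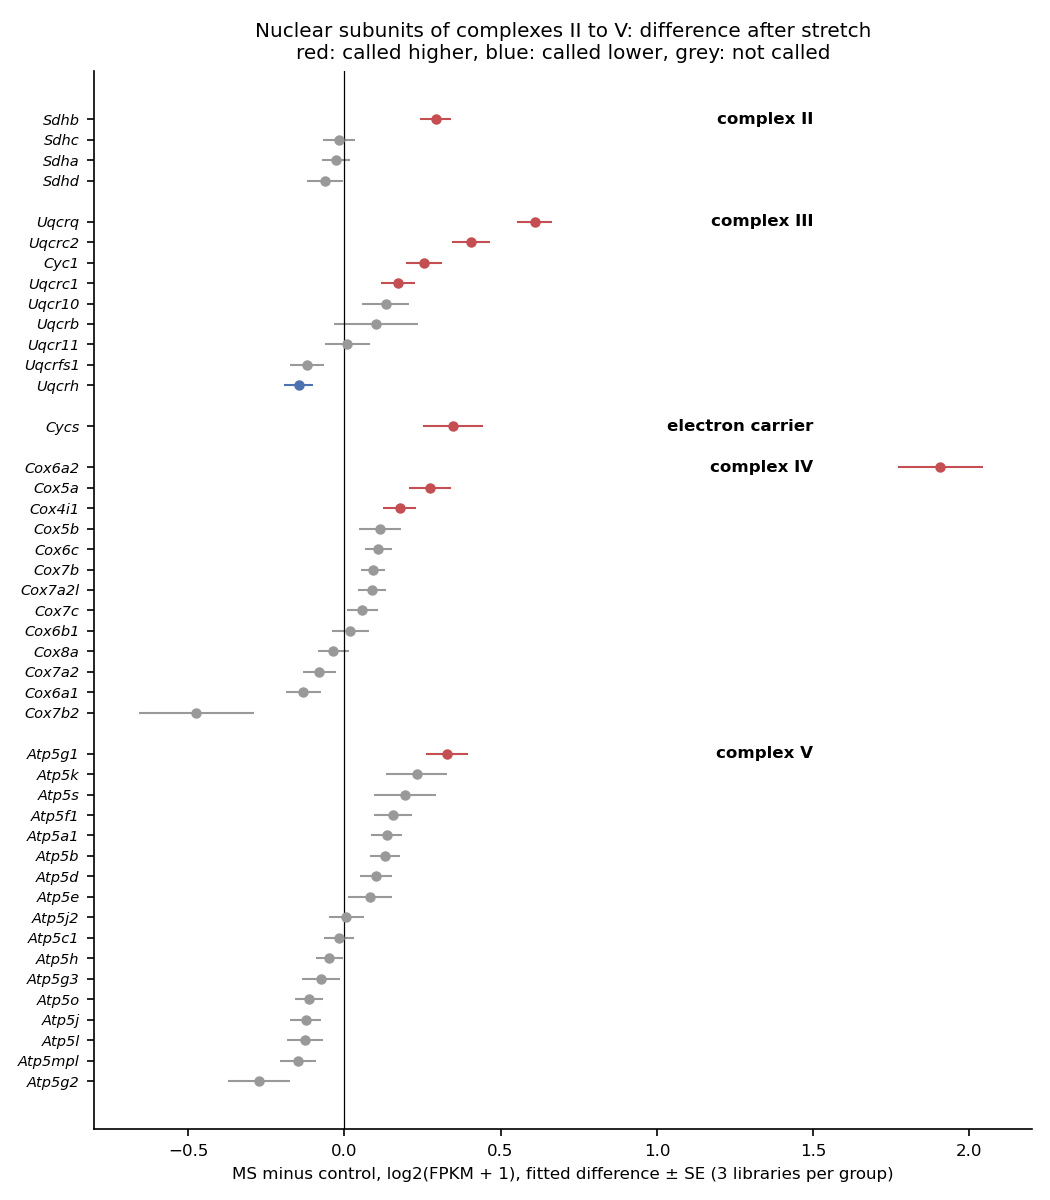
Fitted difference between MS and control on the log2(FPKM + 1) scale for each of the 44 tested genes, by complex, with the SE from limma (3 libraries per group). Red points were called higher, the blue point lower and grey points were not called; Cox6a2 stands at 1.91 and the other genes lie between -0.47 and 0.61.

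For the libraries that stand apart, the model was refitted with a term for the library set (control 3 and MS 1; control 1 and control 2; MS 2 and MS 3), called the library-set model below, in which each fold change equals MS 1 minus control 3. This sets 1 MS library against 1 control library. Each gene's residual spread in it comes from control 1 with control 2 and MS 2 with MS 3 alone. For the p-values limma draws this spread towards a trend over all tested genes. MS 1 and control 3 are assumed to vary like those pairs, so these p-values have no replicate check of their own, here and wherever this model is named. In it 4 genes passed as higher, Cox6a2, Uqcrq, Uqcrc2 and Cox4i1, and 0 as lower, and over all genes 3166 were called in place of 6470. Without control 3 and MS 1, 12 were higher and 2 lower, beside 3338 called higher and 2890 lower over all genes. The sets that remain hold a single group each, so treatment and set cannot be told apart there. Control 3 was the highest of the controls for 9 of the 10 genes called higher, and for 26 of the 44 tested. Calls held in every library left out in turn for 7 of the 11 genes, and in all 19 alternatives for Cox6a2, Uqcrq and Uqcrc2.

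**Figure D2:**
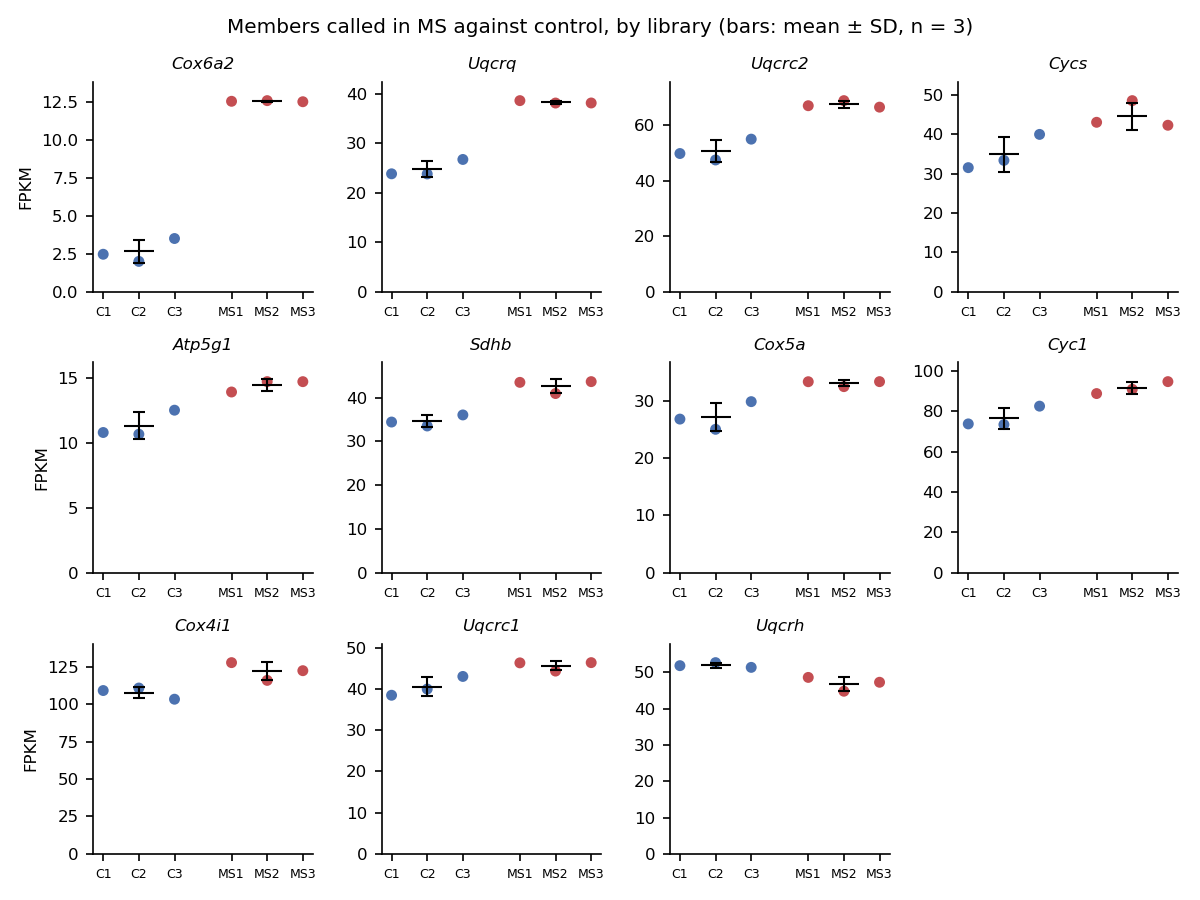
FPKM of the 11 genes called in MS against control, a point for each of the 3 control and 3 MS libraries, with bars for the mean and SD. The groups do not overlap in any panel, and Cox6a2 shows the largest distance relative to its level (2.67 to 12.6 FPKM on average).

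In complex II, the iron-sulphur subunit Sdhb was the gene that rose. Sdhb (chromosome 4, 140688514 to 140706504, mm39), which carries electrons from the flavin to coenzyme Q, was at 34.4, 33.5 and 36.0 FPKM in control 1, 2 and 3 and at 43.5, 40.9 and 43.6 in MS 1, 2 and 3. Every MS library was above every control. Its log2 fold change was 0.29 (SE 0.05, adjusted p = 0.00223), and 0.26 for MS 1 minus control 3, which missed the threshold in the library-set model (adjusted p = 0.057). The other 3 subunits overlapped between groups. The flavoprotein Sdha, which holds the succinate site together with its flavin, averaged 61.1 ± 1.67 FPKM in control against 60.0 ± 1.80 after stretch (SD, n = 3 each), a log2 difference of -0.03 with a 95% interval of -0.13 to 0.08. Among the membrane anchors, which hold the heme and the coenzyme Q site, Sdhc averaged 39.8 and 39.3 FPKM. Sdhd was at 91.8, 96.4 and 105 FPKM in control and 93.0, 94.9 and 92.8 in MS (log2 fold change -0.06, 95% interval -0.20 to 0.07).

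Complex III held the largest rise outside Cox6a2, in the small subunit Uqcrq. Uqcrq (chromosome 11, 53318749 to 53321658), which lies near cytochrome b, was at 23.8, 23.8 and 26.7 FPKM in control and 38.6, 38.1 and 38.1 in MS. The MS libraries differed by less than 1 FPKM and lay well above the controls, with a log2 fold change of 0.61 (SE 0.06, adjusted p = 0.00015) and 0.51 for MS 1 minus control 3 (adjusted p = 0.0054 in the library-set model). The core protein Uqcrc2 (chromosome 7, 120234399 to 120258747), one of a pair that faces the matrix, was at 49.8, 47.5 and 55.0 FPKM in control and 67.0, 68.8 and 66.5 in MS. Its groups did not overlap, and the log2 fold change was 0.41 (SE 0.06, adjusted p = 0.00126), with 0.28 for MS 1 minus control 3 (adjusted p = 0.0398 in the library-set model). The other core protein, Uqcrc1, was at 38.4, 39.9 and 43.0 FPKM in control and 46.3, 44.3 and 46.3 in MS. This smaller difference of 0.17 (adjusted p = 0.0302) was 0.10 in the library-set model (adjusted p = 0.345). Without control 1, control 2, MS 1 or MS 3 it missed the threshold (adjusted p from 0.0855 to 0.0937).

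Of the catalytic genes of complex III, 1 of 2 was called. Cyc1, the cytochrome c1 heme subunit, was at 73.7, 73.4 and 82.5 FPKM in control and 88.7, 90.9 and 94.6 in MS, a rise of 0.25 on the log2 scale (adjusted p = 0.00886) that was 0.10 in the library-set model (adjusted p = 0.298). Uqcrfs1, the Rieske iron-sulphur protein, averaged 53.2 ± 1.68 FPKM in control against 48.9 ± 2.65 after stretch (log2 fold change -0.12, adjusted p = 0.1). Its MS libraries all lay below the controls. Uqcrh, the hinge protein that helps cytochrome c1 meet cytochrome c, was the single gene called lower: 51.8, 52.6 and 51.3 FPKM in control against 48.6, 44.8 and 47.2 in MS. The difference of -0.15 (adjusted p = 0.0308) was -0.03 with equal sums (adjusted p = 0.593) and -0.08 in the library-set model (adjusted p = 0.464), and the call was lost without control 1, control 2, MS 2 or MS 3 (adjusted p from 0.0714 to 0.0969). An antisense row, Gm12854, overlaps Uqcrh and was at 6.05 to 10.4 FPKM, and use of the strand in counting is not given in these sources. Uqcr10, Uqcr11 and Uqcrb, small subunits around the core, overlapped between groups with log2 fold changes of 0.13, 0.01 and 0.10.

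Cycs, the somatic cytochrome c that carries electrons from complex III to complex IV, was higher in MS. It was at 31.5, 33.3 and 39.9 FPKM in control and 43.0, 48.5 and 42.2 in MS (chromosome 6, 50539543 to 50543518). The groups came within 3 FPKM of each other, between control 3 and MS 3. Its log2 fold change was 0.35 (SE 0.10, adjusted p = 0.0184), but 0.10 for MS 1 minus control 3 (adjusted p = 0.512 in the library-set model). The call was also lost without control 1, control 2 or MS 2 (adjusted p from 0.0575 to 0.0624).

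In complex IV the muscle form of subunit VIa showed the largest change of the whole set. Cox6a2 (chromosome 7, 127804607 to 127805559), the form of heart and skeletal muscle, was at 2.48, 2.01 and 3.52 FPKM in control and 12.6, 12.6 and 12.5 in MS. The MS libraries were nearly equal and each was above 3 times the highest control, and the mean was 4.71 times that of control. The log2 fold change was 1.91 (SE 0.14, adjusted p = 5.45e-05), with 1.59 for MS 1 minus control 3 (adjusted p = 0.00105 in the library-set model). Over the alternatives it ranged from 1.59 to 2.23, with adjusted p from 7.25e-06 to 0.00107. It is 1 of 621 genes in the whole table that passed the test with a log2 change of at least 1, and the single one in this set. Beside these values, the muscle fibre list summed to 12.1, 10.7 and 117 FPKM in control 1, 2 and 3 and to 156, 6.80 and 9.78 in MS 1, 2 and 3. For the kidney list the sums were 1.01, 1.15 and 97.4 in the controls and 107, 97.2 and 100.4 in the MS libraries. The part of transcripts from other tissues in the Cox6a2 difference was not tested.

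The partner form was not called, and the other muscle forms were too low to test. Cox6a1, the form of most tissues, whose coding end is printed above beside that of Cox6a2, was at 154, 146 and 153 FPKM in control and 139, 129 and 145 in MS; the log2 fold change was -0.13 (adjusted p = 0.0807). Every MS library lay below every control for Cox6a1, but by a margin of under 1 FPKM between control 2 and MS 3. Cox6a2 made up 1.59%, 1.36% and 2.24% of the summed FPKM of the pair in control and 8.30%, 8.87% and 7.94% in MS, means of 1.73% ± 0.457 and 8.37% ± 0.471 (SD, n = 3 each). An exact two-sided permutation test gave p = 0.1, the smallest that 3 libraries against 3 allow. Cox7a1, the muscle form of subunit VIIa, was at 0.60, 0.21 and 0.56 FPKM in control and 1.07, 0.12 and 0.56 in MS. Cox8b, the muscle form of subunit VIII, was listed at 0 in 4 libraries and at 0.68 FPKM in control 3 and 0.98 in MS 1, the libraries with high muscle fibre sums. Their partners were far more abundant. Cox7a2 was at 41.1, 42.3 and 42.9 FPKM in control and 40.3, 37.3 and 41.9 in MS. Cox8a was at 130, 127 and 118 FPKM in control and 124, 122 and 119 in MS, so both overlapped between groups.

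Forms of lung and testis were scarce. Cox4i2, the form of lung and of low oxygen, was at 0 in 4 libraries and at 0.08 FPKM in MS 1 and MS 2, beside Cox4i1 at 109, 111 and 103 FPKM in control and 128, 116 and 122 in MS. Cox4i1, the form of most tissues and the largest nuclear subunit of the complex, was called higher (log2 fold change 0.18, SE 0.05, adjusted p = 0.025). MS 1 minus control 3 was 0.30 (adjusted p = 0.0283 in the library-set model), but without both libraries the difference was 0.11 (adjusted p = 0.106). The Cox4i1 call was also lost without control 1, control 3, MS 1 or MS 3 (adjusted p from 0.0525 to 0.0781), and an overlapping gene on the other strand, Emc8, was at 5.88 to 7.80 FPKM. Cox6b2, a testis form, was listed at 0 in every library, beside Cox6b1 at 85.5, 92.7 and 90.0 FPKM in control and 91.5, 84.6 and 95.9 in MS. Cox7b2, a second testis form, was at 3.42, 2.73 and 3.45 FPKM in control and 1.80, 3.03 and 1.43 in MS. The log2 difference was -0.47 (unadjusted 95% interval -0.91 to -0.04, adjusted p = 0.0637). MS 2 overlapped the controls. Cox7b, its partner, was at 53.9, 53.7 and 53.9 FPKM in control and 57.6, 57.2 and 57.5 in MS. These groups did not overlap although the difference was 0.09 (adjusted p = 0.0737).

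**Figure D3:**
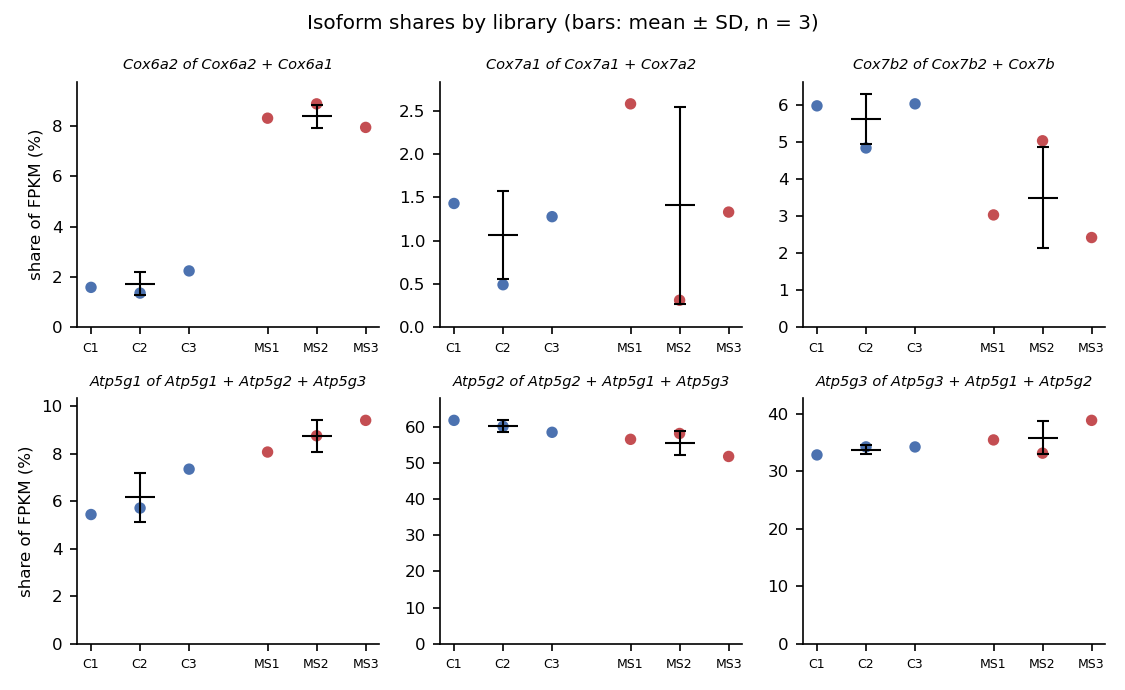
Share of FPKM, in percent, that each isoform takes of the sum with its partner forms, a point for each of the 3 control and 3 MS libraries, with bars for the mean and SD. The Cox6a2 panel separates most, with 1.36% to 2.24% in control and 7.94% to 8.87% in MS.

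Of the complex IV subunits with a single form, Cox5a was the one called. Cox5a, a matrix-side subunit, was at 26.8, 25.0 and 29.8 FPKM in control and 33.3, 32.4 and 33.3 in MS, with no overlap between groups. Its log2 fold change was 0.27 (SE 0.07, adjusted p = 0.0112), and 0.15 in the library-set model (adjusted p = 0.212). Cox5b, which binds zinc, averaged 37.4 and 40.6 FPKM, Cox6c 16.6 and 17.9, and Cox7c 16.6 and 17.4, with log2 fold changes of 0.11, 0.11 and 0.06. Cox7a2l, a relative of subunit VIIa that links complexes III and IV, averaged 77.7 ± 2.32 FPKM in control and 82.7 ± 1.92 in MS (0.09, adjusted p = 0.126).

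In complex V, 1 of 17 genes was called, and it belongs to the c ring, the rotor in the membrane. This count depends on the processing, as do those of all genes. With equal sums 7 were higher and 0 lower, beside 5021 and 2030 over all genes. With the median ratio 1 was higher and 5 lower, beside 3094 and 3183 over all genes. With library weights 5 were higher and 4 lower, beside 4090 and 3131 over all genes. The 3 genes of the c ring encode the same mature c subunit, and they differ in their import sequences. Atp5g1 (chromosome 11, 95959678 to 95966496) was at 10.8, 10.7 and 12.5 FPKM in control and 13.9, 14.8 and 14.7 in MS. All MS libraries lay above the controls, with a log2 fold change of 0.33 (SE 0.07, adjusted p = 0.00585), but 0.14 in the library-set model (adjusted p = 0.232). Atp5g2, the most abundant of them, was at 123, 112 and 99.6 FPKM in control and 97.5, 97.8 and 81.1 in MS (log2 difference -0.27, unadjusted 95% interval -0.51 to -0.04, adjusted p = 0.0514). Its MS libraries were all below the controls, with control 3 next to MS 2, and MS 1 minus control 3 was -0.03. Atp5g3 averaged 62.5 ± 3.67 and 59.2 ± 3.03 FPKM (-0.08). Atp5g1 took 5.45%, 5.72% and 7.36% of the 3 genes' FPKM in control and 8.08%, 8.76% and 9.41% in MS, while Atp5g2 took 61.7%, 60.1% and 58.4% and then 56.5%, 58.1% and 51.8%. Both splits gave p = 0.1 in the exact permutation test, and with 9 isoform shares compared none can pass an adjustment.

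The catalytic head of complex V held the most abundant transcripts of the set. Atp5b, the catalytic beta subunit, averaged 391 ± 16.8 FPKM in control and 428 ± 10.3 after stretch, and Atp5a1, the alpha subunit, 284 ± 13.3 and 311 ± 7.07 (SD, n = 3 each). All MS libraries lay above the controls for both, with log2 fold changes of 0.13 (adjusted p = 0.0561) and 0.14 (adjusted p = 0.0525). Atp5c1, the gamma subunit of the central stalk, averaged 76.4 and 75.4 FPKM, Atp5d, the delta subunit, 103 and 110, and Atp5e, the epsilon subunit, 7.01 and 7.48. In the peripheral stalk, which holds the head still, Atp5f1 averaged 50.6 and 56.4 FPKM (0.16, adjusted p = 0.0629), while Atp5o, the oligomycin sensitivity protein, averaged 77.2 and 71.3 (-0.11), Atp5h 62.1 and 60.1 (-0.05) and Atp5j 16.8 and 15.3 (-0.12). Atp5k, a membrane subunit of the dimer, averaged 6.78 ± 1.04 and 8.08 ± 0.317 FPKM (0.23, adjusted p = 0.0795), and the membrane subunits Atp5l, Atp5mpl and Atp5j2 had log2 fold changes of -0.13, -0.15 and 0.01. Atp5s, a coupling factor that is not a core subunit, averaged 1.85 and 2.26 FPKM. Genes on the other strand overlap Atp5f1 (Wdr77, 11.3 to 22.8 FPKM) and Atp5j (Gabpa, 12.1 to 14.2 FPKM), and use of the strand in counting is not given. Of the whole set, 8 genes are overlapped by a row that reaches 1 FPKM, 2 of them called.

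Levels per length spread widely among subunits of the same complex. Among the core subunits of complex V they ran from 5.53 FPKM for Atp5l to 434 for Atp5b. Short transcripts tended to have lower values: the 10 tested genes under 600 bases had a median of 28.5 FPKM and the other 34 had 52.3, and Spearman's rho of length with mean FPKM was 0.32 (44 genes that share the same libraries, a description). Length and log2 fold change had a rho of 0.37 over the same genes. Length is here that of the longest protein-coding transcript of a gene in GENCODE M21. It may differ from the transcript expressed and from the length behind the FPKM.

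The mitochondrially encoded partners fell, while the summed nuclear subunits of the same complexes were at or slightly above their control level. Nuclear subunits of complex III had a sum of 385 ± 16.4 FPKM in the controls and 432 ± 14.9 after stretch, those of complex IV of 751 ± 3.45 and 777 ± 24.8, and those of complex V of 1294 ± 22.6 and 1342 ± 23.8 (SD over 3 libraries). Complex II, which has no mitochondrial gene, summed to 233 ± 10.0 and 236 ± 4.14 FPKM. The summed mitochondrial genes of complex IV, by contrast, went from 17106 ± 967 FPKM to 2676 ± 752, and those of complex V from 9184 ± 216 to 1231 ± 327. The ratio of mitochondrial to nuclear FPKM was 11.8, 12.2 and 11.1 for complex III in control and 1.77, 1.13 and 1.23 in MS. For complex IV it averaged 22.8 ± 1.39 and 3.44 ± 0.90, and for complex V 7.10 ± 0.0726 and 0.914 ± 0.229. No ratio in MS reached any in control.

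All 6 mitochondrial genes of these complexes were called lower, also in the library-set model. How reads shared with nuclear copies of these genes were divided is not known. Log2 fold changes were -2.95 for mt-Cytb, the cytochrome b of complex III, -2.57, -2.94 and -2.85 for mt-Co1, mt-Co2 and mt-Co3, the catalytic core of complex IV, and -2.74 and -3.07 for mt-Atp6 and mt-Atp8, the proton channel subunit and its neighbour in complex V. FPKM are shares of a library, and mitochondrial messenger RNA took 12.4% to 13.4% of all FPKM in the controls, against 1.64% to 2.82% after stretch, while ribosomal RNA rows took 0.646% to 0.797% and 2.27% to 4.94%. The 48 nuclear genes took 0.815% to 0.835% in control and 0.912% to 0.961% in MS. Without mitochondrial and ribosomal RNA rows in the sum these shares were 0.950% to 0.979% and 0.978% to 1.02%, and the ranges met. With that scaling 10 of the 44 tested subunits were called higher and 3 lower, beside 3563 higher and 2881 lower over all genes.

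**Figure D4:**
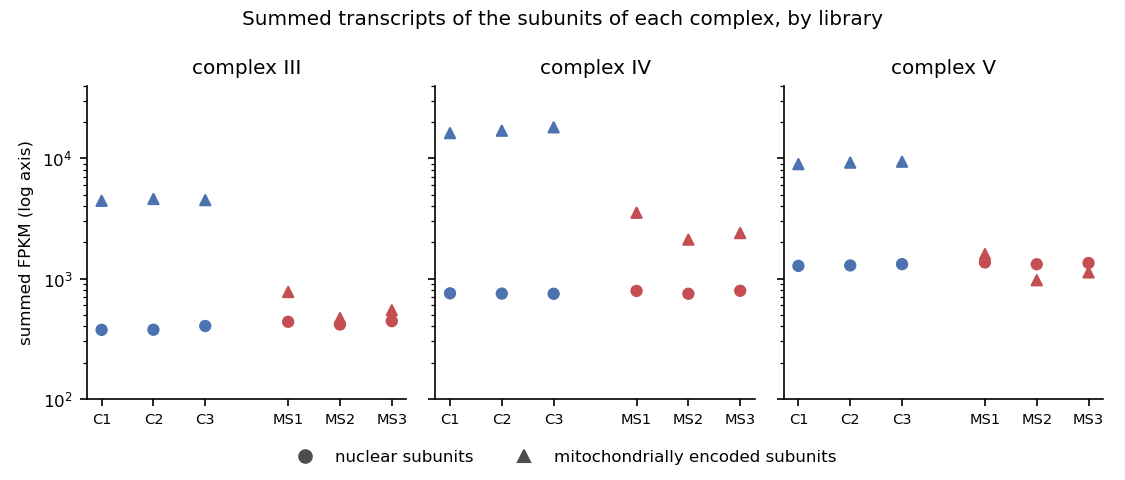
Summed FPKM of nuclear subunits (circles) and mitochondrially encoded subunits (triangles) of complexes III, IV and V, on a log axis, for each of the 3 control and 3 MS libraries. The circles differ little between control and MS, while the triangles drop, for complex V from 9184 to 1231 FPKM on average.

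Assembly factors, which build the complexes, were followed from lists of their own. Of 41 listed factors found among the deposited genes, 37 were tested, and 23 were higher (62.2%) and 1 lower, with a median log2 fold change of 0.25. Ndufa4, on the list for complex IV, is also counted as a subunit of it. Among the subunits 22.7% were higher, and among all tested genes 30.6% were higher and 23.2% lower. The difference between these shares was not tested. These shares are from the main test. In the library-set model, which called fewer genes over the whole table as well, most of the factors named below missed the threshold. Without control 3 and MS 1, 19 factors were higher and 2 lower, beside 3338 called higher and 2890 lower over all genes. For complex II 2 of 3 rose. Sdhaf1, an iron-sulphur factor for Sdhb, was at 0.93, 0.84 and 0.78 FPKM in control and 2.38, 2.31 and 2.37 in MS (0.86, adjusted p = 0.000131), and Sdhaf2, which attaches the flavin to Sdha, rose by 0.25 (adjusted p = 0.0203). For complex III 4 of 6 rose, with the largest changes in Uqcc3 (0.67) and Uqcc1 (0.35), which act in the making of cytochrome b. For complex IV 15 of 24 rose and 1 fell. Sco2, a copper chaperone of the complex, rose from 3.63 ± 1.18 to 6.98 ± 0.672 FPKM (0.81, adjusted p = 0.00679), Coa4 rose by 0.45, and Cmc2 fell from 6.72 ± 0.225 to 3.97 ± 0.246 (-0.64, adjusted p = 0.000177). For complex V 2 of 4 rose, Atpaf1, which acts on the beta subunit (0.41), and Tmem70 (0.22).

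In the library-set model, with MS 1 against control 3 and the spread taken from the other libraries, Sdhaf1 (0.92, adjusted p = 0.00679), Coa4 (0.58, adjusted p = 0.0455) and Cmc2 (-0.58, adjusted p = 0.0144) passed the threshold. It was missed by Sco2 (0.48, adjusted p = 0.141), Uqcc3 (0.56, adjusted p = 0.0589), Uqcc1 (0.20, adjusted p = 0.348), Sdhaf2 (0.08, adjusted p = 0.588), Atpaf1 (0.35, adjusted p = 0.096) and Tmem70 (0.12, adjusted p = 0.535). Coenzyme Q carries electrons from complex II to complex III. Of 12 tested genes of its synthesis 4 rose and 1 fell, with a median of 0.19. In the main test 30.6% of all tested genes were higher and 23.2% lower, and the coenzyme Q counts were not tested against these shares. The methyltransferases Coq3 and Coq5 rose from 5.09 ± 0.823 to 8.26 ± 0.199 FPKM and from 11.5 ± 1.20 to 16.8 ± 0.849 (log2 fold changes 0.61 and 0.52), and Coq2, which joins the ring to its tail, fell by 0.21 on the log2 scale. None of these 3 passed in the library-set model (adjusted p from 0.0594 to 0.135).

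**Figure D5:**
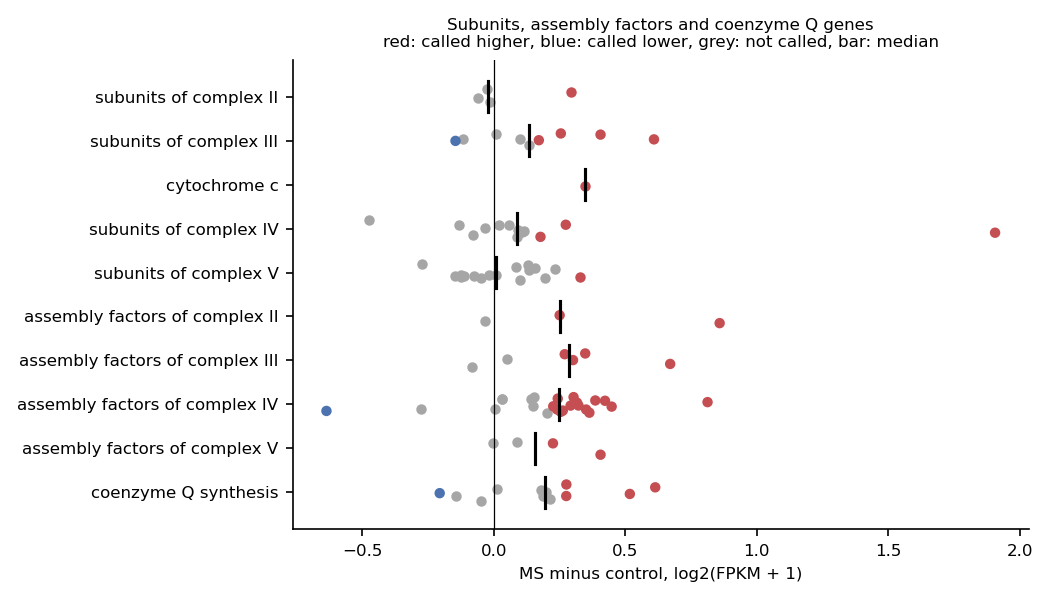
Difference between MS and control on the log2(FPKM + 1) scale for each tested gene of the subunits, their assembly factors and coenzyme Q synthesis, with bars for the list medians. Red points were called higher and blue points lower; 10 of 44 subunits and 23 of 37 assembly factors were higher.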

How the data were processed

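Per the labels' protocols, RNA with an integrity number above 7.0 was made into strand-marked libraries. The deposited values are FPKM per gene and library, per the file headers, so the depth is unknown and no count test was run. Tools listed in the submitters' processing notes, without roles, are HISAT2 2.2.1, StringTie 2.1.6, cutadapt 1.9, edgeR and DESeq2, on mm39. The division of shared reads is not given in these sources. Symbols came from GENCODE M21 by Ensembl ID (31077 of 32815 matched); coordinates are mm39 as deposited, and sequences GRCm38.

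Genes that averaged 1 FPKM or more were tested on log2(FPKM + 1) with limma 3.58.1 in R 4.3.3 (lmFit, eBayes with trend), as a two-sided test adjusted by Benjamini-Hochberg over 12028 genes. Every adjusted p is from limma. Fold changes on this scale understate the change of low genes. The steps were tested on simulated data. The members, the lists of pathway and marker genes and the alternatives were chosen with earlier results of these data known. Library values were given for each called gene, each complex IV isoform and the 2 largest changes per complex, and from the lists the 2 largest called changes each way were named. Same-numbered libraries did not deviate together, so no pairing was used.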

Additional observations from a re-analysis of the deposited data

How the results depend on the processing

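The calls of Cox6a2, Uqcrq and Uqcrc2 held in all 19 alternatives, and none of the 11 called genes changed direction, although fold changes of uncalled genes near 0 changed sign. Of 834 refitted values 746 stayed on their side of the threshold, 33 lost and 55 gained a call. Of the 33 uncalled genes 20 gained a call in at least 1 alternative. Genes called higher were 22 with equal sums, 17 with library weights and 4 with the set of 3 levels as a term, which called 3166 genes in all. Genes called lower were 2 at a mean of at least 5 FPKM, 0 with equal sums, 3 without mitochondrial and ribosomal RNA rows, 8 with the median ratio, 0 without the trend, 6 with weights, 0 with the set of 3 levels, 2 with the set of 2 levels and 2 without control 3 and MS 1. Over all genes 5021 were higher and 2030 lower with equal sums, 4090 and 3131 with library weights, and 3094 and 3183 with the median ratio. Without mitochondrial and ribosomal RNA rows the counts over all genes were 3563 and 2881. The median fold change of the set was 0.19 with equal sums and 0.04 with the median ratio, against 0.09. The cause was not tested. Leaving out each library in turn gave 7 to 12 genes higher and 0 to 3 lower; the lower count was 3 without MS 1, 2 without control 3 and 0 without control 1, control 2 or MS 3. With the replicate number as a replicate block, 8 were higher and 1 lower (Atp5g2, adjusted p = 0.0115, while Uqcrh lost its call at 0.0741), and 5890 genes were called; correlations of same-numbered libraries were -0.33, 0.25 and -0.37, and control 3 and MS 1 had 0.46. Depth is unknown, so values under 1 FPKM carry no interval.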
